A study of Mus musculus with 6 samples.

Results

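The molecular clock of freshly isolated muscle stem cells (MuSCs) was read from 10 genes, namely *Arntl*, *Clock*, *Per1*, *Per2*, *Per3*, *Cry1*, *Cry2*, *Nr1d1*, *Nr1d2* and *Dbp*. They were chosen by name among the 25166 genes of the table, each was found once, and all 10 were high enough to be tested. MuSCs are the PAX7-positive stem cells of skeletal muscle. They were sorted from male C57BL/6 mice of 12 weeks, and RNA of 100 to 200 cells went into each library. The Sirt6mKO group (3 libraries) carries Sirt6 fl/fl alleles with loxP sites around exons 4 to 6 and Pax7-ICNCre. This Cre recombinase is constitutively active under the Pax7 promoter, which is also used by muscle progenitors before birth, so that the loss of *Sirt6* is neither induced in the adult nor limited to MuSCs. The control group (3 libraries, Ctrl) is labelled wild type. Its mice are described as Cre-negative with floxed *Sirt6* alleles. The paper also names a ROSA26-YFP reporter strain in the crosses that gave Sirt6mKO. It lists sorting by YFP from Pax7-ICNCre mice with this reporter, by GFP, or by surface markers. Which of these was used for each group is not given in the sources used here. Cre, and possibly the reporter and the sorting, thus differed between the groups along with *Sirt6*, and their part was not tested. The mice lived under a cycle of 12 h light and 12 h dark. The time of day of the isolation is not given in the sources used here.

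The clock is a feedback loop of transcription. CLOCK, or its relative NPAS2, pairs with ARNTL (also called BMAL1) and binds E-boxes, which drives the *Per*, *Cry*, *Nr1d* and *Dbp* genes. PER and CRY proteins then repress this pair, while the nuclear receptors NR1D1 and NR1D2 (REV-ERB alpha and beta) repress *Arntl*, *Npas2* and *Cry1* through ROR elements, and DBP activates genes with D-boxes, among them the *Per* genes. As a result, *Arntl* and *Npas2* reach their peak in the phase of the day when *Dbp* and the *Nr1d* genes are low, *Cry1* peaks later than the other repressors, and *Clock* itself varies little in most tissues. The loop runs in skeletal muscle and in MuSCs.

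The start regions of the members in RefSeq (build GRCm38.p6), each with 250 bases before and 50 after a start site, were searched on both strands for the E-box CACGTG, its variant CACGTT (E'-box), the D-box TTATGTAA or TTACGTAA, and the core of the ROR element, TAGGTCA or TGGGTCA. A start region was at hand for 9 members (13 regions), the exception being *Per2*. An E-box was found at *Per1* (position -166 from the start) and at *Cry1* (-60), against 7.15% of all 32851 regions of that length. An E'-box was found at *Cry1* (-79), *Cry2* (-166) and *Nr1d1* (-28), against 4.68%. A D-box was found only at *Per3* among these 9 members, at -205 and again at -158, against 1.06%. A ROR element core was found only at *Arntl*, 30 bases after its second start, against 6.45%. No matches overlapped. A match describes the letters and does not show that a factor binds there. The regions below belong to the members with the largest differences in level (*Cry1* and *Dbp*), to *Arntl*, whose level varied most among the controls after that of *Cry1*, and to *Per3*, with matches to the letters above in capitals, the E'-box in its form on the other strand. The *Cry1* region lies on the minus strand at chr10:85185005-85185304, that of *Arntl* on the plus strand at chr7:113207261-113207560, that of *Per3* on the minus strand at chr4:151044616-151044915 and that of *Dbp*, which holds none of the letters, on the plus strand at chr7:45704997-45705296.
*Cry1*: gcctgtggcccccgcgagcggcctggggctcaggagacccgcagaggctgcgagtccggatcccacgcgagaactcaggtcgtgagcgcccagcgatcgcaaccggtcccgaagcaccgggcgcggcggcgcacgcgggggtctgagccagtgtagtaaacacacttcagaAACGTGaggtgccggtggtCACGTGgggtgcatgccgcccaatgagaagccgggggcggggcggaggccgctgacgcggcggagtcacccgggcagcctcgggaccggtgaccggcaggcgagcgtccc
*Arntl*: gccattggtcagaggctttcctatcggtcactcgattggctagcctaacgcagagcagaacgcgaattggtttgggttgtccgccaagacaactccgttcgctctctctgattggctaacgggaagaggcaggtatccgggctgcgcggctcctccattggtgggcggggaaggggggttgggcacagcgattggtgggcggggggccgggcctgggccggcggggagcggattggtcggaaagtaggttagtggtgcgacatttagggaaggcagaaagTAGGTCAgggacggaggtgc
*Per3*: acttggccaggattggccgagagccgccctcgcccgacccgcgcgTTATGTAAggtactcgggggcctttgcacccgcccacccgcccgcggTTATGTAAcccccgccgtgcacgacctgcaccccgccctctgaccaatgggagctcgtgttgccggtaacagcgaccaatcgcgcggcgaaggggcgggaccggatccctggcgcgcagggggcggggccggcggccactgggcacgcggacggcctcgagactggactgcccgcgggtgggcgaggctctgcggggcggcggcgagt
*Dbp*: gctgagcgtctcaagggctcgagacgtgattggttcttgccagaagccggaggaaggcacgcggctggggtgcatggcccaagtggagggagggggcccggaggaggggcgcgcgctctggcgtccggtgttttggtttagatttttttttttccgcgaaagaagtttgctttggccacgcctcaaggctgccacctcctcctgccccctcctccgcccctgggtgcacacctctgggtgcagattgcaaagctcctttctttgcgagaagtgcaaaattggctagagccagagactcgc

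The values are whole numbers without a named unit. They are called signal here. By their spacing they are reads per gene divided by 1 factor per library and rounded, so that a single read stands for a signal of 0.729 (control replicate 2) to 1.792 (control replicate 3). The libraries hold 1267027 to 3209958 reads by these factors, and control replicate 3 is the smallest. *Sirt6* had a signal of 19, 20 and 13 in Sirt6mKO against 18, 17 and 20 in Ctrl. Since the exons outside the deletion still count, this value cannot check the labels. Of the 10 MuSC markers, which include *Pax7*, *Myf5*, *Itga7* and *Vcam1*, all were present, with a summed signal of 11311 to 11773 in Sirt6mKO and 12737 to 14037 in the controls, and 4 of the 10 had a log2 fold change above 0. At an adjusted p of 0.05 or less (limma-trend), *Pax7* (log2 fold change -0.84, adjusted p = 0.0041) and *Chrdl2* (-1.105, adjusted p = 0.0021) were lower in Sirt6mKO, and *Cd34*, whose product served as a sorting marker where no fluorescent reporter did, was higher (0.60, adjusted p = 0.031). *Myod1*, a myogenic regulator outside this list, was lower (-0.86, adjusted p = 0.045). The 10 myofiber markers summed to 1499, 1638 and 348 in Sirt6mKO replicates 1, 2 and 3 and to 315 to 361 in the controls. By limma-trend, 2 of them were higher and 0 lower at an adjusted p of at most 0.05, against 376 and 267 of all 14227 tested genes. These were *Acta1* (log2 fold change 1.71, adjusted p = 0.035) and *Mylpf* (2.15, adjusted p = 0.018). The 8 fibroblast markers summed to 8504 to 10488 against 5985 to 9352, most of it from *Col3a1*. The defining marker *Pdgfra* stood at 14, 22 and 38 against 9, 4 and 2, and 3 of the 6 tested fibroblast markers (*Pdgfra*, *Col1a1* and *Col1a2*) were higher at an adjusted p of at most 0.05, as were 376 of all 14227 tested genes, while *Ly6a* and *Mfap5* were at 5 or less in every library. The endothelial markers with a value (5 of 6) summed to 24 to 38 against 12 to 40, the immune markers with a value (3 of 6) to 38 to 76 against 36 to 67, and the 5 mural markers to 84 to 155 against 80 to 94. The part of these differences in the results on clock genes was not tested, and fewer cells of a type and less RNA per cell cannot be told apart in such libraries.

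All clock genes listed at the start had signal in every library of the sorted cells, which by the paper were not fully pure. Levels were compared per kilobase of the union of annotated exons, which ignores the isoform present and reads lost where genes overlap. On this scale *Nr1d1* stood highest in the controls, with a level of 175 ± 8.98 (SD, n = 3). Each of its control libraries lay above all those of the next gene. *Nr1d2* (68.7 ± 11.1), *Per1* (62.8 ± 10.4), *Dbp* (53.3 ± 12.3) and *Clock* (48.2 ± 1.54) followed, and neighbours in this order overlapped. Below a gap came *Arntl* (19.9 ± 7.60), *Cry2* (16.7 ± 2.24), *Per2* (15.0 ± 3.59) and *Per3* (15.0 ± 1.09), again with overlap between neighbours. *Cry1* was the lowest at 8.48 ± 4.20, and its control libraries were all below those of *Per3*. In Sirt6mKO, *Cry1* had 16.4 ± 2.68 per kilobase, close to *Per3* (17.0 ± 1.25), and *Dbp* had 31.7 ± 6.04.

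**Figure D1:**
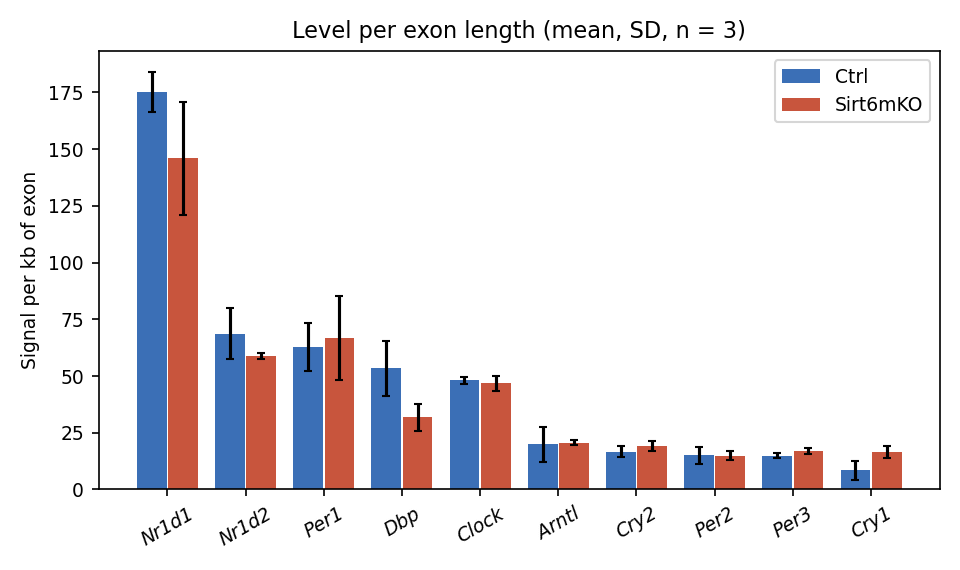
Signal per kilobase of exon (vertical axis, linear) for the 10 clock genes, as mean with SD over 3 libraries of each group, in the order of the control level. *Nr1d1* stands highest in both groups, and *Cry1* is lowest in the controls (8.48) but level with *Per3* in Sirt6mKO (16.4 against 17.0).

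The question of the comparison was whether clock genes differ in level between MuSCs of Sirt6mKO and of control mice. SIRT6 is a histone deacetylase. No clock gene passed the thresholds that the study set for MuSCs. With limma-trend and Benjamini-Hochberg adjustment over 14227 tested genes, 0 of the 10 had both an adjusted p of 0.05 or less and a 2-fold or larger change, where 2.59% of all tested genes did. At the adjusted p alone the count was again 0, against 4.52% of all tested genes, and limma voom on recovered reads also gave 0. At an unadjusted p under 0.05, 2 of the 10 stood out, *Cry1* (higher) and *Dbp* (lower), against a background of 18.1%. In 3 of the 10, namely *Cry1*, *Dbp* and *Nr1d2*, the groups did not overlap, against 21.2% of all tested genes. Counts of 2 and 3 among 10 genes lie near these backgrounds and are no result about the clock genes as a group. The median log2 fold change of the 10 was 0.03, beside 0.00 over all tested genes, with 6 values above 0 and 4 below. The 95% interval of 8 members lay wholly within a 2-fold change in either direction, and those of *Cry1* and *Dbp* reached beyond it.

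**Figure D2:**
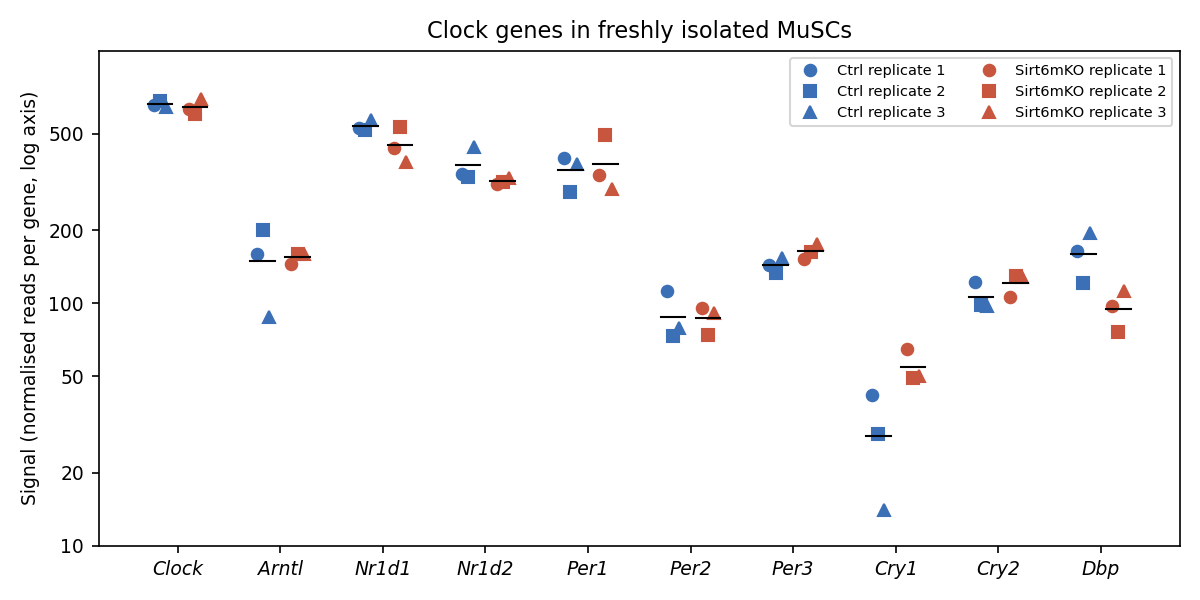
Signal of each clock gene in each library (log axis), controls in blue and Sirt6mKO in red, with 1 symbol per replicate number and a black line at the group mean. All Sirt6mKO libraries lie above the controls for *Cry1* and below them for *Dbp*, while control replicate 3 is far below the other controls for *Arntl* (88 against 160 and 201).

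The activators differed little between the groups. *Clock* (ENSMUSG00000029238, GRCm38 chromosome 5, 76209868 to 76304792), which encodes the bHLH-PAS partner of ARNTL, had a signal of 630, 606 and 693 in Sirt6mKO and of 659, 684 and 642 in the controls. The 6 values overlapped and stayed within a narrow band. Its log2 fold change was -0.04 (standard error, SE, 0.10, 95% interval -0.27 to 0.18, adjusted p = 0.89).

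*Arntl* (ENSMUSG00000055116, chromosome 7, 113207465 to 113314126) had a signal of 145, 159 and 160 in Sirt6mKO and of 160, 201 and 88 in the controls. The Sirt6mKO libraries were nearly alike, whereas the controls ranged 2.28-fold from lowest to highest, a ratio that 2.06% of the 7393 genes whose signal averaged 50 or more, with no control at 0, reached, with a median ratio of 1.26. The low value of control replicate 3 rests on 49 reads, with an exact Poisson interval of 65.0 to 116 in units of signal that covers counting error only. The log2 fold change of *Arntl* was 0.13 (SE 0.24, adjusted p = 0.84) and turned to -0.21 (adjusted p = 0.50) without control replicate 3, while its alternatives gave adjusted p-values of 0.43 to 0.98.

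*Npas2*, which can stand in for CLOCK, is a gene of the longer list and showed the same library apart. Its signal was 184, 206 and 181 in Sirt6mKO against 218, 201 and 91 in Ctrl, and the difference of 0.26 on the log2 scale (SE 0.26, adjusted p = 0.66) did not pass. Its ratio of highest to lowest control, 2.40, was reached by 1.74% of the same 7393 genes. Other clock genes ranked in this way varied less among the controls. The share of genes that reached their ratio was 12.2% for *Dbp*, 38.0% for *Nr1d2*, 87.4% for *Nr1d1* and 94.4% for *Clock*.

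Among the repressors, the 3 *Per* genes did not separate the groups. *Per1* (ENSMUSG00000020893, chromosome 11, 69095217 to 69109960), which also responds to glucocorticoids and cAMP, had a signal of 337, 493 and 295 in Sirt6mKO and of 398, 287 and 376 in the controls. Its highest value was in Sirt6mKO replicate 2 and its lowest in control replicate 2, and the log2 fold change of 0.06 (95% interval -0.33 to 0.46, adjusted p = 0.91) turned negative without either of these libraries. *Per2* (ENSMUSG00000055866, chromosome 1, 91415982 to 91459324) had a signal of 96, 74 and 91 against 112, 73 and 79, a log2 fold change of 0.00 (95% interval -0.41 to 0.41, adjusted p of 1). *Per3* (ENSMUSG00000028957, chromosome 4, 151003652 to 151044665), the member with D-boxes in the printed region, had a signal of 152, 163 and 176 against 144, 133 and 154. Its log2 fold change was 0.19 (95% interval -0.10 to 0.47, adjusted p = 0.50), and the groups overlapped by a single pair of libraries, 152 in Sirt6mKO and 154 in the controls.

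*Cry1* was the member with the largest fold change. This gene (ENSMUSG00000020038, chromosome 10, 85131700 to 85185064) encodes a cryptochrome, a strong repressor of CLOCK and ARNTL. Its signal was 65, 49 and 50 in Sirt6mKO against 42, 29 and 14 in Ctrl, so that the lowest Sirt6mKO library stood above the highest control. The means were 54.7 ± 8.96 and 28.3 ± 14.0 (SD, n = 3 per group), a ratio of 1.93. The log2 fold change of 1.04 (SE 0.33, 95% interval 0.33 to 1.76) had an unadjusted p of 0.00796 and an adjusted p of 0.10 from limma-trend, and so did not pass. The low end of the controls rests on few reads, with 8 in control replicate 3, where the exact Poisson interval ran from 6.19 to 28.3 in units of signal. Without this library the log2 fold change was 0.62 (adjusted p = 0.20), and without control replicate 1 it was 1.38 and passed (adjusted p = 0.028). Its alternatives gave adjusted p-values of 0.028 to 0.35. It was above 0 in every alternative that was run.

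*Cry2* (ENSMUSG00000068742, chromosome 2, 92403646 to 92434043), the other cryptochrome gene, had a signal of 106, 129 and 128 in Sirt6mKO and of 122, 98 and 97 in the controls, with overlap. Its log2 fold change was 0.20 (95% interval -0.14 to 0.53, adjusted p = 0.56). The difference between the log2 fold changes of *Cry1* and *Cry2* was not tested.

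The nuclear receptors of the second loop were slightly lower in Sirt6mKO, and neither passed. *Nr1d1* (ENSMUSG00000020889, chromosome 11, 98767932 to 98775333) had a signal of 435, 532 and 381 in Sirt6mKO and of 530, 517 and 570 in the controls. Only Sirt6mKO replicate 2 reached into the range of the controls. The log2 fold change was -0.27 (95% interval -0.56 to 0.01, adjusted p = 0.29).

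*Nr1d2* (ENSMUSG00000021775, chromosome 14, 18204054 to 18239127) had a signal of 311, 317 and 327 in Sirt6mKO and of 342, 332 and 441 in the controls. The groups did not overlap, but the highest Sirt6mKO and the lowest control library were only 5 units of signal apart in 327 and 332. The log2 fold change was -0.21 (95% interval -0.49 to 0.06, adjusted p = 0.43).

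*Dbp* came closest to the threshold. This gene (ENSMUSG00000059824, chromosome 7, 45705088 to 45710203) encodes a PAR bZIP transcription factor and is one of the strongest outputs of the clock in many tissues. Its signal was 97, 76 and 112 in Sirt6mKO against 164, 121 and 194 in Ctrl. All Sirt6mKO libraries were lower than all controls, with means of 95 ± 18.1 and 160 ± 36.7 (SD, n = 3 per group), a ratio of 0.595. The log2 fold change was -0.73 (SE 0.19, 95% interval -1.15 to -0.31), with an unadjusted p of 0.00239 and an adjusted p of 0.052 from limma-trend. Without control replicate 2 it was -0.92 and passed (adjusted p = 0.029), and without control replicate 3 it was -0.58 (adjusted p = 0.15). Its alternatives gave adjusted p-values of 0.01 to 0.22. An exact permutation test of 3 against 3 libraries cannot go below p = 0.1, which is the value for each of the 3 genes without overlap.

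**Figure D3:**
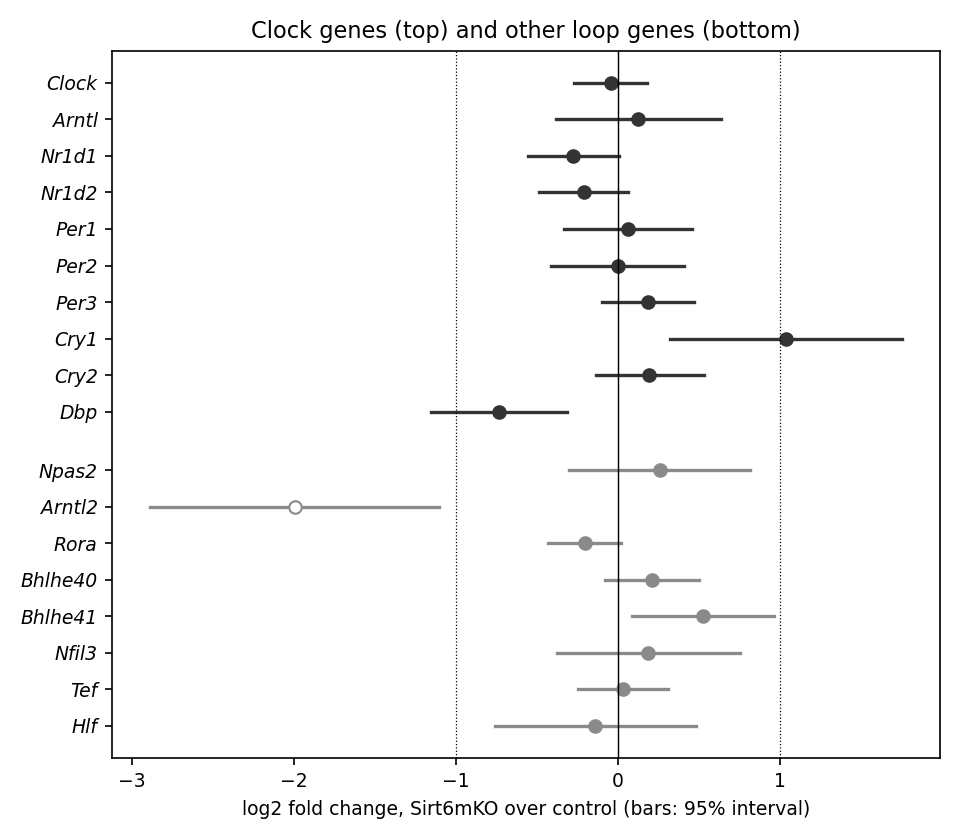
log2 fold change of Sirt6mKO over control (horizontal axis) with its 95% interval from limma-trend, for the 10 clock genes in black and 8 other genes of the loop in grey. Dotted lines mark a 2-fold change, filled points an adjusted p above 0.05 and the open point one below. *Arntl2* at -1.995 is the only open point, and among the 10 clock genes the intervals of *Cry1* and *Dbp* alone leave out 0.

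The members of opposite phase were also compared within each library, by a choice made after their values were seen. The ratio of *Dbp* to *Arntl* signal was 0.669, 0.478 and 0.70 in Sirt6mKO but 1.03, 0.602 and 2.21 in Ctrl. The ratio of *Dbp* to *Cry1* was 1.49, 1.55 and 2.24 in Sirt6mKO but 3.91, 4.17 and 13.9 in Ctrl. The first ratio overlapped between the groups. The second could not, since all Sirt6mKO libraries were lower for *Dbp* and higher for *Cry1*, and so adds nothing to the values of the 2 genes. Control replicate 3 was the highest in both.

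For arms of the loop, the mean log2(signal + 1) of *Per1*, *Per2*, *Per3*, *Nr1d1*, *Nr1d2* and *Dbp* less that of *Arntl*, *Clock*, *Npas2* and *Cry1* was 0.14, 0.22 and 0.17 in Sirt6mKO but 0.44, 0.22 and 1.39 in Ctrl. *Cry2* was left out, and the repressor *Cry1* was placed with the activators, so that a higher *Cry1* lowers this measure. The Sirt6mKO libraries and control replicate 2 were nearly alike on this measure, and control replicate 3 stood far above the others. The difference between the group means was -0.51 on the log2 scale, and -0.15 without control replicate 3. No test was made on this sum over members.

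Control replicate 3 was thus the lowest of the 6 libraries for *Arntl*, *Cry1*, *Cry2* and *Npas2* and the highest for *Nr1d1*, *Nr1d2* and *Dbp*. For *Per1*, *Per2* and *Per3* it lay between other libraries, with a signal of 376, 79 and 154. It was at an extreme in 6 of the 10 members, where it was so in 40.2% of all tested genes, the most of any library. This count is not far from that share and is no result about the members as a group. Relative to the median of the 6 libraries, control replicate 3 deviated by -0.85 for *Arntl*, -1.07 for *Npas2*, -1.63 for *Cry1* and 0.73 for *Dbp* on the log2 scale, but by -0.02 for *Clock*. It is also the library with the fewest reads, whose part in this was not tested.

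**Figure D4:**
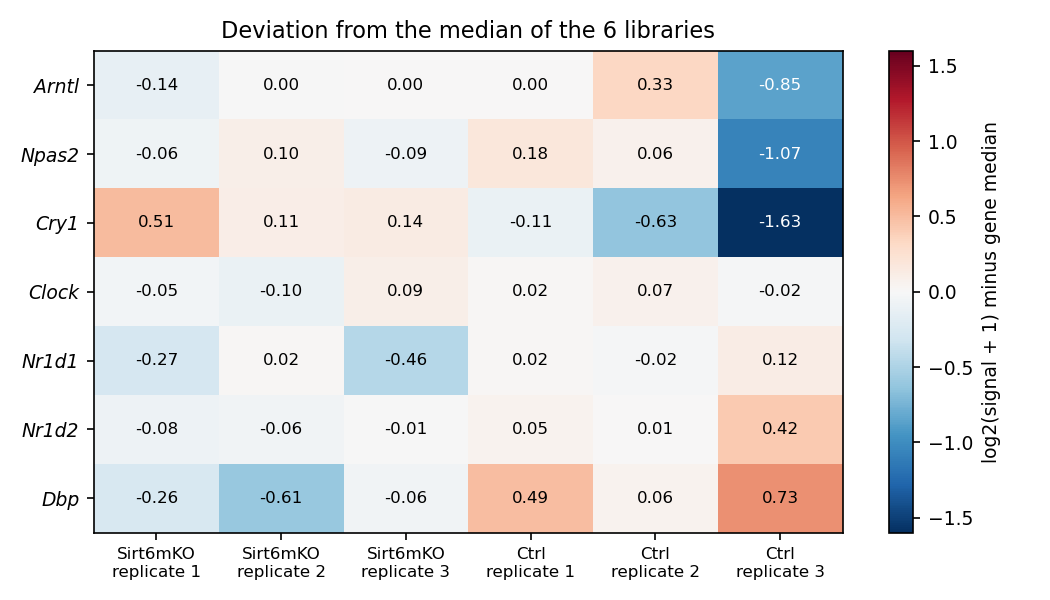
Deviation of log2(signal + 1) from the median of the 6 libraries, for 7 clock genes (rows) in each library (columns), with red for above and blue for below. The *Per* genes and *Cry2* are not shown. In control replicate 3, *Arntl*, *Npas2* and *Cry1* are low (-0.85 to -1.63) and *Nr1d2* and *Dbp* are high (0.42 and 0.73), while *Clock* is near 0 in all libraries.

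The rest of the loop was read from a list of 11 genes, of which 9 were high enough to test and *Rorb* and *Ciart* were not. Only *Arntl2* passed, against 4.52% of all tested genes, and it was lower in Sirt6mKO. *Arntl2* (ENSMUSG00000040187, chromosome 6, 146796055 to 146833529), a paralog of *Arntl* whose product also pairs with CLOCK, had a signal of 12, 4 and 4 in Sirt6mKO and of 32, 23 and 25 in the controls, so that the groups did not overlap. These values rest on 14, 5 and 4 reads and on 26, 32 and 14 reads. In units of signal, the exact Poisson intervals of Sirt6mKO replicate 1 (6.37 to 19.5) and control replicate 3 (13.7 to 42.1) overlapped. The difference of -1.995 on the log2 scale (SE 0.412, limma-trend adjusted p = 0.016) lost the call, with an adjusted p of 0.051 to 0.089, when Sirt6mKO replicate 2 or 3 or control replicate 1 or 2 was left out, and over all alternatives the adjusted p was 0.0086 to 0.089. With a level per kilobase of 4.69 ± 0.83 in the controls, *Arntl2* was low beside *Arntl* at 19.9.

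The remaining 8 tested genes stayed above the threshold. The receptor gene *Rora*, whose product activates at ROR elements, had a value of -0.20 on the log2 scale (adjusted p = 0.34). The signal of *Rora* was 699, 741 and 766 in Sirt6mKO against 899, 785 and 859 in Ctrl, without overlap. The repressor gene *Bhlhe41* had a value of 0.53 (adjusted p = 0.19) and its paralog *Bhlhe40* one of 0.21 (adjusted p = 0.45). Among the PAR bZIP relatives of *Dbp*, *Tef* was at 0.03 (adjusted p = 0.93) and *Hlf* was at -0.14 (adjusted p = 0.86), and *Nfil3*, which encodes a repressor at D-boxes, was at 0.19 (adjusted p = 0.77). The difference of these from *Dbp* was not tested. The median log2 fold change of the 9 genes was 0.19.

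Of 9 genes for proteins that modify or bind clock proteins, 0 passed by limma-trend and 0 by limma voom, against 4.52% of all tested genes, with 2 at an unadjusted p under 0.05, near the 18.1% of all tested genes. Among these was *Csnk1e*, a casein kinase gene, at -0.25 (adjusted p = 0.27). The most abundant by signal, *Nono* and *Gsk3b*, had log2 fold changes of -0.12 and -0.02. *Usp2*, a rhythmic deubiquitinase gene, had a signal of 131, 122 and 96 against 171, 111 and 169 (-0.35 on the log2 scale, adjusted p = 0.36). Of the 9 genes, 8 had a value below 0, with a median of -0.16, where 7054 of all 14227 tested genes were below 0.

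Of 6 genes known to be rhythmic in many tissues, 1 passed, against 4.52% of all tested genes. *Pdk4*, the gene of a kinase that shuts off pyruvate dehydrogenase, had a signal of 200, 186 and 220 in Sirt6mKO and of 135, 127 and 160 in the controls. The log2 fold change was 0.52 (SE 0.14, adjusted p = 0.049 from limma-trend). It lost the call in 5 of the 6 fits without a library, the exception being the one without control replicate 3, and its adjusted p was 0.033 to 0.18 over all alternatives. *Tsc22d3*, a glucocorticoid target, had 345, 380 and 302 against 298, 206 and 238, without overlap (log2 fold change 0.48, adjusted p = 0.096). *Nampt* and *Wee1* had log2 fold changes of 0.02 and 0.04. All 6 values were above 0, with a median of 0.38, beside 7173 of 14227 above 0 and a median of 0.00 over all tested genes.

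Several members share their locus with another gene. *Sphk2* on the other strand overlaps 18.0% of the exon bases of *Dbp*, and *Thra* on the other strand overlaps 8.55% of those of *Nr1d1*. Reads on more than 1 gene were left out by the authors, and whether the strand was used is not stated, so that the signal of these members may miss or share reads there. The signal of *Sphk2* was 67, 72 and 43 in Sirt6mKO against 46, 77 and 50 in Ctrl (log2 fold change 0.08, adjusted p = 0.92), and that of *Thra*, the thyroid hormone receptor alpha gene, was 840 to 937 against 746 to 888 (0.11, adjusted p = 0.67). *Camta1*, a gene of a calmodulin-binding transcription activator on the strand of *Per3*, overlaps the *Per3* locus without shared exon bases. Its signal was lower in Sirt6mKO, at 126, 135 and 109 against 247, 264 and 351 (-1.20 on the log2 scale, SE 0.15, limma-trend adjusted p = 0.0011), whereas *Per3* was at 0.19. At *Arntl* and *Cry2* the overlapping transcripts, *Gm45355* and *D930015M05Rik*, had a signal of at most 4, and at *Clock* *Ube2n-ps1* and *Gm43658* had at most 16 and share no exon bases with it.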

How the data were processed

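RNA of sorted MuSCs (3 Sirt6mKO and 3 Ctrl libraries, grouped by their titles) was sequenced after ribosomal depletion with single reads of 75 bases. The labels and the methods differ in the library kit they name. The authors aligned reads to mm10 (GRCm38) with STAR, counted them over exons with featureCounts, leaving out reads on several genes or regions, and tested them with DESeq2. The submitters' processing notes also name Trimmomatic 0.39, STAR 2.7.10a and featureCounts 2.0.2. The deposited signal is whole numbers of an unnamed unit, and the spacing of the occupied values is that of reads that the authors scaled with 1 factor for each library and then rounded. These factors, 0.558 to 1.372, were fitted for each library on its own, and 11 and 27 of the whole numbers from 1 to 60 had no gene in control replicates 1 and 3.

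Since the values are no longer counts, limma-trend (limma 3.58.1, R 4.3.3) was run on log2(signal + 1) of all genes whose signal averaged 5 or more, without further scaling, and p-values were adjusted over all of them. Fold changes are on this log2(signal + 1) scale and understate changes of low genes. The fit was tested on simulated data with 200 changed genes, of which 87% were found, and 74 of 100 changed by 2-fold. The changed genes were drawn above a minimum signal, and all genes were given the same variability. These shares therefore do not measure how often low or more variable genes would be found. The methods speak of biological replicates but state another number of them for RNA-seq in general than the 3 per group here. The paper's legends for RNA-seq of Sirt6mKO MuSCs give n = 3. The labels do not say that samples are separate mice, so that p-values measure the spread between these samples, which may be technical. The clock genes, gene lists and markers were chosen with earlier results of these data known. Poisson intervals cover counting error only. Named were the 10 members, list genes at an adjusted p of at most 0.05 or otherwise the 2 most abundant of a list, and genes that overlap a member, and further list genes were named after their values were seen. Single values of 2 list genes are not reported here, though list counts and medians include them. Exon lengths and overlaps came from GENCODE M21, in which the 10 members had the coordinates of the table. Python 3.11.15, numpy 2.4.6, pandas 2.3.3, scipy 1.17.1 and matplotlib 3.10.9 were used.

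Alternatives were 3 other scalings, no filter or a mean of at least 50, a pseudocount of 0.1 or 5, robust empirical Bayes, limma voom on recovered reads, a replicate block, an adjusted p of at most 0.01, and each library left out.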

Additional observations from a re-analysis of the deposited data

How the results depend on the processing

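Among the clock genes, *Clock*, *Per3*, *Cry2*, *Nr1d1* and *Nr1d2* kept their direction and stayed above the threshold in all 16 alternatives. The count of members past both thresholds was 0 to 1 with a library left out and 1 with the replicate block, and past the adjusted p alone 0 to 1 with a library left out, 1 at a pseudocount of 5 (*Dbp*, -0.71), 1 with robust empirical Bayes (*Dbp*, -0.73) and 2 with the replicate block (*Cry1*, 1.04, adjusted p = 0.042, and *Dbp*, -0.73, adjusted p = 0.01). Over all alternatives the adjusted p was 0.028 to 0.35 for *Cry1* and 0.01 to 0.22 for *Dbp*, and with a library left out their log2 fold changes were 0.62 to 1.38 and -0.92 to -0.58. Deviations from the group mean of libraries with the same number had correlations of 0.06, 0.05 and 0.24 over genes. These values cannot decide whether the numbers mark pairs. Deviations within a group sum to 0, and no correlations of other pairs were set beside them. The titles give numbers only, and the main fit used no pairs. Members without overlap numbered 2 with upper quartile scaling. They also numbered 2 at a mean of at least 50, where *Cry1* was not tested, and 3 to 5 with a library left out. Smaller groups separate more easily for any gene, and the share of all tested genes without overlap was not counted for these alternatives. The rise is therefore no result about the members. Values near 0 changed sign. *Arntl* was between -0.21 and 0.38 and *Per1* between -0.15 and 0.22 with a library left out, with *Per1* at -0.15 without Sirt6mKO replicate 2 and -0.08 without control replicate 2. *Per2* was -0.014 with upper quartile scaling, -0.017 with library size scaling and -0.12 to 0.19 with a library left out. *Arntl2* could not be tested at a mean of at least 50, which left 0 genes of the other loop list past the threshold, as did an adjusted p of at most 0.01, against 0 to 1 with a library left out. The rhythmic outputs gave 0 with upper quartile or library size scaling, no filter, a pseudocount of 0.1 or an adjusted p of at most 0.01, and 0 to 1 with a library left out. The glucocorticoid targets gave 3 at a pseudocount of 5, with limma voom and with the replicate block, 2 with robust empirical Bayes, 0 at an adjusted p of at most 0.01 and 0 to 4 with a library left out. The immediate early genes gave 4 to 10 with a library left out. Over all genes, 643 passed the adjusted p, against 384 at a mean of at least 50, 814 with the replicate block and 234 to 683 with a library left out. The cause of these changes was not tested. *Cry1*, below a mean of 50, and *Arntl2* are limited by reads, with 8 and 4 in their lowest libraries. The alternatives of the last pair of lists and the sums with a library left out were chosen after seeing the data.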

Other observations

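Genes that respond to glucocorticoids or to rapid signals, as *Per1* does, were read beside it. Of 9 glucocorticoid targets, which include *Per1* and *Tsc22d3*, 1 was higher in Sirt6mKO at an adjusted p of at most 0.05 and 0 lower, where 4.52% of all tested genes passed in either direction. This was *Mt1*, a metallothionein gene, with a signal of 78, 96 and 84 in Sirt6mKO against 54, 36 and 32 in Ctrl (log2 fold change 1.09, standard error 0.21, limma-trend adjusted p = 0.012). It lost the call without Sirt6mKO replicate 1 (adjusted p = 0.060) or 2 (0.089), in a range of 0.0035 to 0.089 over its alternatives. *Klf9*, whose product is a repressor, and *Fkbp5*, a co-chaperone gene of the glucocorticoid receptor, lay just above the threshold with log2 fold changes of 0.64 (adjusted p = 0.053) and 0.69 (adjusted p = 0.054), both without overlap between the groups. *Zbtb16* was at -0.43 (adjusted p = 0.34), *Sgk1* at 0.01 and *Per1* at 0.06. The median of the list was 0.34, beside 0.00 over all tested genes.

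Of 12 immediate early genes, 6 were higher in Sirt6mKO and 0 lower at an adjusted p of at most 0.05, where 376 of all 14227 tested genes were higher and 267 lower. *Fos* had a signal of 3442, 3757 and 4355 against 1951, 2632 and 2302 in the controls (log2 fold change 0.75, limma-trend adjusted p = 0.0081), and *Junb* rose by 0.85 (adjusted p = 0.0018), *Jun* by 0.80 (0.0047), *Egr1* by 0.79 (0.0062), *Egr2* by 1.05 (0.035) and *Ier2* by 0.62 (0.042). *Egr2* and *Ier2* passed in only 1 of the 6 fits without a library, the one without control replicate 2. In that fit 10 of the 12 genes passed in either direction, as did 384 of all 14332 tested genes. *Crem*, which encodes a cAMP-responsive modulator, had a value of -0.55 (adjusted p = 0.059), with a signal of 78, 72 and 75 in Sirt6mKO against 119, 99 and 113 in Ctrl. The summed signal of the list was 15597 to 18070 in Sirt6mKO and 9441 to 11937 in the controls. *Per1* had overlapping groups in the same libraries.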
